A study of Mus musculus with 6 samples.

Results

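The genes described here encode the classical axon guidance ligands and their receptors: the semaphorins, the neuropilins and plexins that bind them, the Slits and their Robo receptors, the Unc5 netrin receptors, and the ephrins with the Eph receptors. The rule that picks them uses gene symbols and no measured value, although the set was proposed with earlier results of these data known. They comprise 64 of the 18305 genes in the deposited tables. The set holds 20 semaphorin, 2 neuropilin, 9 plexin, 3 Slit, 4 Robo, 4 Unc5, 8 ephrin and 14 Eph receptor genes. RNA sequencing compared 3 cultures of KM strain mouse cells, with 2 libraries in each. MEF libraries came from fibroblasts of embryos taken at 12.5 or 13.5 days after mating, at passage 3 to 5. CiLC libraries came from such fibroblasts, also at passage 3 to 5, to which small molecules were added 24 h after plating, in an attempt to turn fibroblasts into Leydig-like cells. The labels name neither the compounds nor their doses nor the day of harvest. LC libraries came from testis cells labelled as Leydig cells, at passage 0 to 1, and the labels give no age for the donor animals. MEF and LC therefore differ in tissue and passage at once, and possibly in stage, and these cannot be told apart.

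Axon guidance proteins were named for steering growing nerve fibres, and most are also made by fibroblasts, vessels and glands, where they act on cell shape, adhesion and migration. Secreted class 3 semaphorins mostly bind a neuropilin paired with a class A plexin, whereas membrane-bound semaphorins bind plexins directly, and plexins act through small GTPases and the cytoskeleton. Slits bind Robo receptors, netrins bind Dcc and Unc5 receptors, and ephrins, which are anchored in the membrane, bind Eph receptor tyrosine kinases on the neighbouring cell. In the testis, Leydig cells lie between the tubules next to vessels, macrophages and peritubular muscle-like cells.

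Promoter sequences are shown for 4 genes, picked by hand as examples of opposite patterns between the fibroblast and testis cultures. They are not the 4 genes with the largest differences between LC and MEF, as Ephb1 and Epha3 are not among them. Robo4 does have the largest fitted difference of the genes described here in CiLC against LC, resting on 1 CiLC read. Sema3a and Sema3c, which lie in the same stretch of chromosome 5, had far fewer reads in LC than in MEF. Robo4 and Sema7a, both on chromosome 9, had far more. Each pair holds a promoter poor in CG dinucleotides and a promoter rich in them. The sequences are the 250 bases before the RefSeq start site in GRCm38.p6, written 5′ to 3′ on the strand of the gene, with every CG dinucleotide in capitals. All 4 genes are on the forward strand. The windows are chr5:13396534-13396783 for Sema3a, chr5:17574566-17574815 for Sema3c, chr9:37401722-37401971 for Robo4 and chr9:57939862-57940111 for Sema7a.
Sema3a: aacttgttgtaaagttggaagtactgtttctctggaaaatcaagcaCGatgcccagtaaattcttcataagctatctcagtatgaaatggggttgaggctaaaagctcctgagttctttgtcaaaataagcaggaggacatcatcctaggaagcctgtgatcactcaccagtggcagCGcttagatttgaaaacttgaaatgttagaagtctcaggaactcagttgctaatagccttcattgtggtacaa
Sema3c: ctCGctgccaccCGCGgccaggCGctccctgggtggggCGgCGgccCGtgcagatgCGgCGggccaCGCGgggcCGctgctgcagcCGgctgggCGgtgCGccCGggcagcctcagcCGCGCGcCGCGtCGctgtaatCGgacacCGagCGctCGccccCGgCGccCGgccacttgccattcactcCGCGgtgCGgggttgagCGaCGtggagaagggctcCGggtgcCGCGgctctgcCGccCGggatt
Robo4: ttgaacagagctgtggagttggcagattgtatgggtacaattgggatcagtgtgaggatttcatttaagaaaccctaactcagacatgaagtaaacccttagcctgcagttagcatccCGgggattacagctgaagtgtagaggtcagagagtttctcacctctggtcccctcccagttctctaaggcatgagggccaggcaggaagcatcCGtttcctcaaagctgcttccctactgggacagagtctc
Sema7a: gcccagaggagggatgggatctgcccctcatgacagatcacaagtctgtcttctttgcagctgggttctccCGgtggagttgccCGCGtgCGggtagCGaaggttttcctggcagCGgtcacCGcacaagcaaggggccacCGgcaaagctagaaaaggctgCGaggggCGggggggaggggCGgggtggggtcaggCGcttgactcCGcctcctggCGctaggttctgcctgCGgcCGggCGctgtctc

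The Sema3a window held 2 CG dinucleotides and 40.8% G or C, and the Robo4 window also 2, with 49.6% G or C. The Sema3c window held 39 and 78.4% G or C, and the Sema7a window 17 and 66.4%. The 4 genes were picked by hand, with a CG-poor and a CG-rich promoter in each pair. They therefore cannot show how CG content relates to the direction of difference. RefSeq promoters were matched for 56 of the 64 genes, at 72 start sites, whose windows had a median of 15.5 CG dinucleotides, against 6 over all 32851 promoters in the table. The median was 17.5 for the 30 genes with a matched promoter that were lower in LC than in MEF and 12 for the 17 that were higher, with starts of a gene averaged. The GC box GGGCGG, searched on both strands, occurred in 70.8% of the 72 windows and in 32.7% of all promoters. It was found 3 times in the Sema3c window and 2 times in the Sema7a window, and in neither the Sema3a nor the Robo4 window. The letters AAGGTCA, to which SF-1 (the product of Nr5a1) can bind, occurred in 4.17% of the 72 windows and 4.08% of all promoters, in Nrp1, Sema4b and Sema5a. The GATA factor letters AGATAA occurred in 4.17% and 9.99%, in Efna4, Epha3 and Robo2. No motif contains another, and a match is a description of the letters, not evidence of binding.

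Each library held 18.4 to 18.9 M estimated reads, and the 64 genes took 0.590% and 0.602% of them in MEF, 0.571% and 0.568% in CiLC and 0.403% and 0.414% in LC. Levels are given as CPM, the reads of a gene scaled to a fixed library total,, in the order replicate 1 and replicate 2, and n is 2 libraries a group throughout. Nothing in the labels shows that a group's libraries are from separate cultures or animals, so each p-value reflects the difference within these pairs, possibly a technical one. In LC, the steroidogenic genes Star (182 CPM), Cyp11a1 (705 CPM) and Nr5a1 (166 CPM) were present, but Cyp17a1, needed for androgen synthesis, had 0 and 1 reads, and Lhcgr, the luteinizing hormone receptor, 3 and 2. LC also held Sertoli cell markers, summing to 2310 CPM, most of it Clu at 1940 CPM. The list summed to 42.8 to 45.8 CPM in MEF and 249 to 252 in CiLC. All 6 Sertoli markers tested were higher in LC than in MEF. CiLC held Star at 58.0 CPM and Nr5a1 at 69.0 CPM, against 5.28 and 0.157 CPM in MEF. Of the 6 Leydig markers tested, 5 were higher in CiLC than in MEF. Insl3 was not called, at 0.558 CPM in CiLC and 0.963 in MEF. Lhcgr had 0 reads in both CiLC libraries, and Cyp17a1 had 1 and 1. All 12 macrophage markers were at or above 1 CPM in every group. The plot of marker lists by library shows these sums.

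**Figure D1:**
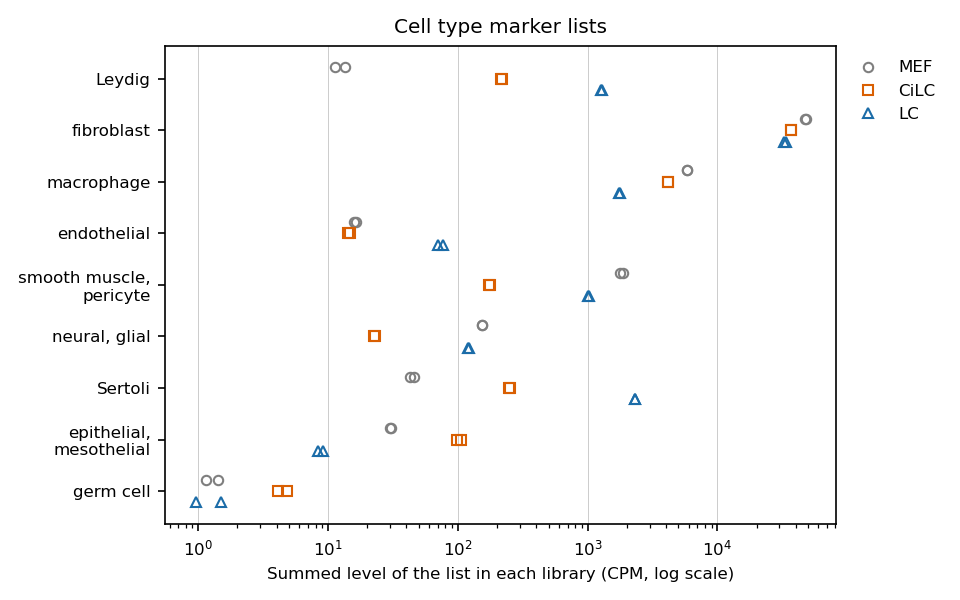
Summed level of 9 cell type marker lists in each library, in CPM on a log scale; each symbol is 1 library (circles MEF, squares CiLC, triangles LC). The Leydig list summed to between 11.4 and 13.4 CPM in MEF, 216 and 220 in CiLC and 1270 and 1300 in LC, while the macrophage list summed to between 5830 and 5860 CPM in MEF and 1740 and 1780 in LC.

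Differences of at least 2-fold were found in 37 of these genes between LC and MEF, in 37 between CiLC and LC and in 16 between CiLC and MEF. These are 62.7%, 62.7% and 27.1% of the genes tested, beside 27.2%, 25.4% and 12.2% of all genes. Sema3a, Sema3c, Epha3, Epha7 and Unc5c were at least 8.82-fold lower in LC than in MEF, while Sema4b, Sema7a, Ephb1 and Robo4 were at least 12.1-fold higher. In CiLC, Sema5b fell 57-fold and Unc5b 3.97-fold from the MEF level, and Unc5d rose 16.5-fold, Plxna4 2.63-fold and Efna5 2.37-fold. The fold of Sema5b rests on 6.86 and 12.89 estimated reads in CiLC, and that of Unc5d on 6.93 and 7.91 in MEF. Slit3, Nrp2, Plxnb2 and Plxna1, each at 223 CPM or more in every library, differed by less than 2-fold between any pair of cultures.

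Of the 64 genes, 59 passed the filter on low counts and were tested with edgeR among 14581 genes. The other 5 were barely detected and were not tested: Epha8 had 0 or 1 reads in every library, Epha10 0 to 2, Unc5a 0 to 4, Slit1 2 to 14 and Robo3 0 to 11. In CiLC against MEF, 23 of the 59 genes were higher and 23 lower at an adjusted p of 0.05, which is 78% of them, beside 51.6% of all genes tested (26.1% higher, 25.5% lower). The called differences reached 2-fold in 9 genes that were higher and 7 that were lower, together 27.1%, beside 12.2% of all genes (6.23% higher, 5.98% lower). The median log2 fold change was -0.07, and the median of its absolute value 0.54, against 0.01 and 0.25 over all genes. In LC against MEF, 17 were higher and 36 lower, 89.8% of the 59, beside 70.7% of all genes (35.7% higher, 35% lower). At least 2-fold were 11 and 26, or 62.7%, beside 27.2% of all genes (14.3% higher, 12.9% lower). The median log2 fold change was -0.81, against -0.01 over all genes. In CiLC against LC, 32 were higher and 21 lower, beside 70.6% of all genes called (35% higher, 35.6% lower), and 24 and 13 of these reached 2-fold, 62.7% beside 25.4%. The last 2 comparisons share the LC libraries, and the first 2 the MEF libraries, so these counts are not independent of each other.

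The mean level was highest in MEF for 22 of the 59 tested genes, in CiLC for 18 and in LC for 19, while LC had the lowest level for 34. The same counts were not made over all 14581 genes tested, so they do not set these genes apart. The spread between the libraries of a group was small, with a common biological coefficient of variation of 3.16%. If the spread between separate cultures were as large as 0.4, 4 of the 46 differences between CiLC and MEF would be called: Unc5d higher and Sema3b, Sema5b and Unc5b lower. Over all 14581 genes tested, 407 would be called higher and 268 lower in that comparison. In LC against MEF 29 would be called, 10 higher and 19 lower, and in CiLC against LC 19 higher and 10 lower. Over all genes tested, 1450 would be higher and 1058 lower in LC against MEF, and 937 higher and 1314 lower in CiLC against LC. With 0.1, the calls lost were 10 in CiLC against MEF (Efnb1, Nrp2, Sema3a, Sema3c, Sema3f, Sema5a, Sema6a, Sema7a, Plxnb2 and Plxnc1), 2 in LC against MEF (Nrp2 and Slit3) and 4 in CiLC against LC (Nrp1, Plxnb2, Robo2 and Slit3).

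**Figure D2:**
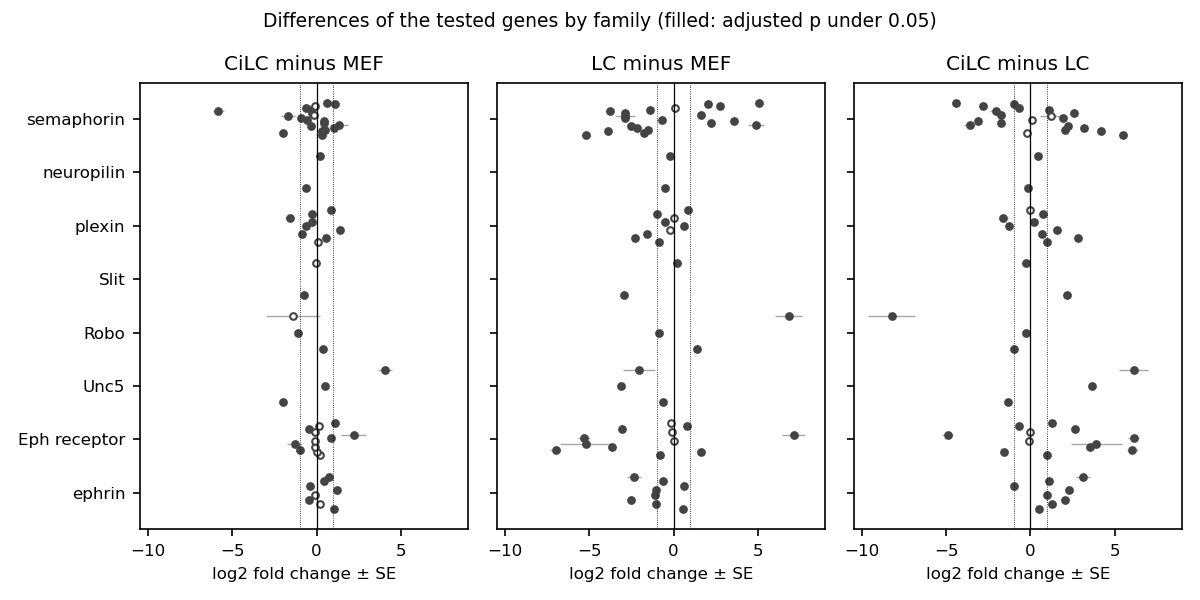
Log2 fold change with its standard error for the 59 tested genes, by family, in the 3 comparisons; filled points passed an adjusted p of 0.05 in edgeR, open points did not, and dotted lines mark a 2-fold difference. The panels with LC spread more widely (median absolute log2 fold change 1.61 against MEF and 1.60 against CiLC) than CiLC against MEF (0.54), where Sema5b and Unc5d lie farthest out. Over all genes tested these medians were 0.45, 0.44 and 0.25, so the wider spread with LC is general. Robo4, Epha5 and Unc5d have 0 to 3 reads in a group, and their fitted values there are not estimates of size.

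Of the 20 semaphorin genes, which encode secreted or membrane-bound ligands that share a sema domain, 9 rose and 9 fell in CiLC against MEF, or 90%, beside 51.6% of all genes. LC against MEF gave 7 higher and 12 lower, or 95% beside 70.7%, and 90% reached 2-fold, beside 27.2%. In CiLC against LC 8 were higher and 9 lower, or 85% beside 70.6%. Per kilobase of transcript, the scale on which genes can be ranked, Sema3f, Sema4d and Sema5a led in MEF (55.1, 30.3 and 18.7 CPM per kb) and in CiLC (44.3, 15.9 and 15.3). In LC others led, with Sema4b at 53.0, Sema6c at 25.8 and Sema4g at 14.3 CPM per kb and Sema4a between the last 2. Of the genes that led in MEF and CiLC only Sema3f is secreted, and the genes that led in LC are all membrane-bound.

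Secreted class 3 semaphorins as a rule repel axons and other migrating cells through neuropilins. All 7 were called between LC and MEF with at least a 2-fold difference, beside 27.2% of all genes tested. Sema3a (gene number 20346) was at 49.3 and 45.1 CPM in MEF, 62.2 and 55.6 in CiLC, and 1.75 and 0.827 in LC. The LC libraries lay far below all others, 36.5-fold under MEF (log2 fold change -5.19 ± 0.25 SE, edgeR adjusted p = 4.75e-19), a value of -5.83 without LC replicate 1. Sema3c (20348), a ligand best known from the outflow tract of the heart, was at 65.7 and 57.7 CPM in MEF, 78.5 and 75.8 in CiLC and 3.88 and 4.41 in LC. LC was 14.8-fold below MEF (-3.89 ± 0.14, edgeR adjusted p = 6.55e-20) and 18.6-fold below CiLC. Sema3a and Sema3c each rose only 1.25-fold in CiLC over MEF (edgeR adjusted p = 0.000566 and 7.93e-05). Sema3e, a ligand of Plxnd1 that needs no neuropilin, was at 6.14 and 6.71 CPM in MEF, 13.5 and 12.6 in CiLC and 1.27 and 1.60 in LC. It rose 2.02-fold in CiLC (edgeR adjusted p = 1.39e-07) and was 9.05-fold higher there than in LC. Sema3d followed the same order, with 17.4 and 16.1 CPM in MEF, 24.6 and 23.6 in CiLC and 6.03 and 5.77 in LC, 1.44-fold higher in CiLC and 2.84-fold lower in LC than in MEF. Sema3f, which prefers Nrp2, was highest in MEF instead, at 180 and 194 CPM, with 147 and 154 in CiLC and 33.7 and 31.5 in LC. It fell 1.24-fold in CiLC (edgeR adjusted p = 1.30e-05) and was 5.74-fold lower in LC than in MEF.

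Sema3b and Sema3g did not share the order of Sema3a, Sema3c, Sema3d and Sema3e either. Sema3b fell 3.94-fold in CiLC, from 15.9 and 14.0 CPM to 3.82 and 3.75 (log2 fold change -1.98 ± 0.15 SE, edgeR adjusted p = 2.52e-11). Its LC libraries, at 3.65 and 5.06 CPM, overlapped those of CiLC (edgeR adjusted p = 0.323). Sema3g was almost absent from MEF, at 0.105 and 0.521 CPM, and from CiLC, at 0.916 and 0.659, but reached 8.99 and 10.4 in LC, 30.3-fold over MEF (edgeR adjusted p = 8.15e-13). That fold rests on 2 and 10 MEF reads, and the log2 value of 4.92 became 4.19 without MEF replicate 1 and 6.44 without replicate 2. The call of a rise in CiLC (edgeR adjusted p = 0.0331) did not pass when CiLC replicate 1, MEF replicate 1 or either LC library was left out, with adjusted p from 0.0582 to 0.35.

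Sema3d, Sema3a, Sema3e and Sema3c lie along the same part of chromosome 5, with no other gene of the tables between the first 2 of them. All 4 were higher in CiLC than in MEF and lower in LC. Of the 18 genes of the tables in this stretch 14 are not semaphorins, and 7 of those could be tested. In LC against MEF, 2 of the 7 were lower, the synaptic gene Pclo and the growth factor gene Hgf, and 5 were higher, among them the calcium channel subunit gene Cacna2d1 (41.0 and 39.6 CPM in MEF, 71.6 and 76.1 in LC). The others that were higher, Gm9758, Gm17019, Gm21149 and Speer4c, had at most 3.56 estimated reads in any MEF library. Pclo was low as well, at 1.73 and 1.44 CPM in MEF. Hgf was at 13.2 and 14.5 CPM in MEF, 21.1 and 20.4 in CiLC and 10.4 and 9.89 in LC. The order of the 3 cultures for Hgf was thus that of the 4 semaphorins, while that for Cacna2d1 was not. Positions are those of GRCm38 and not of the build used for counting.

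**Figure D3:**
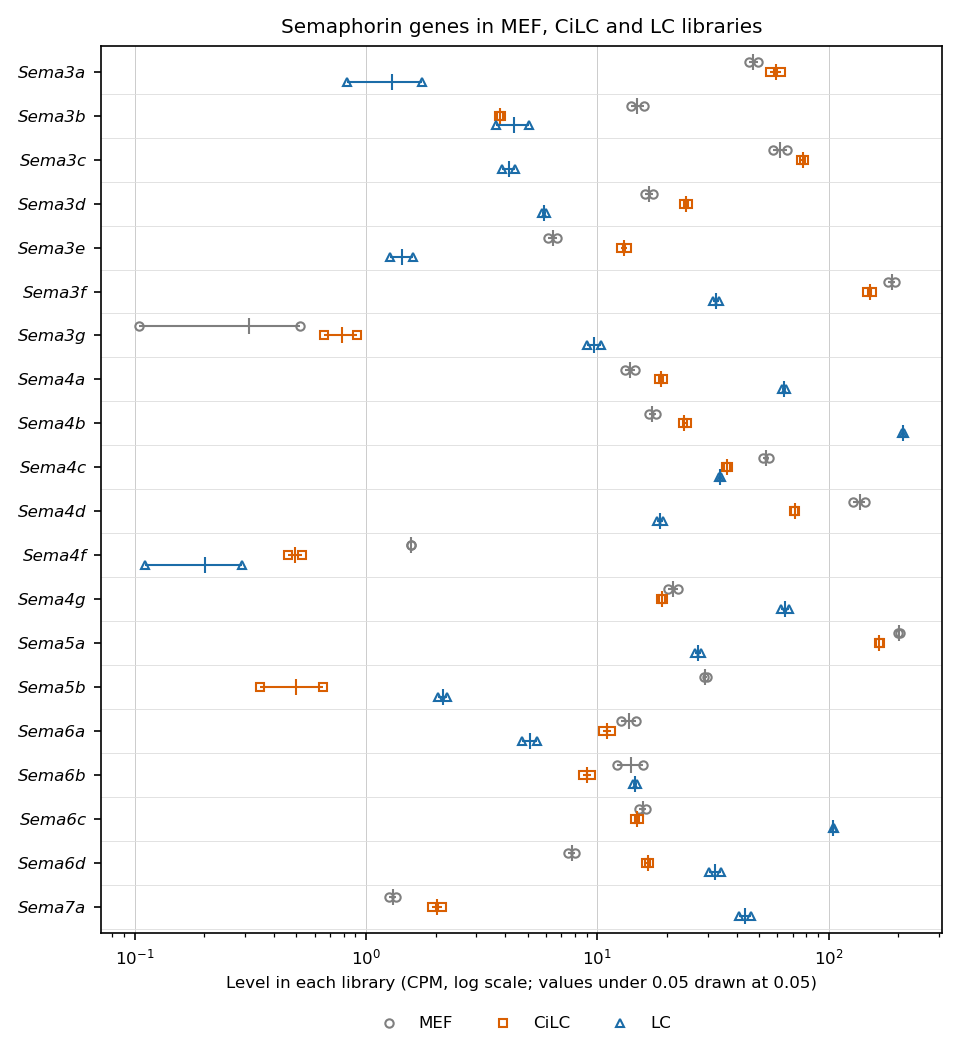
Level of the 20 semaphorin genes in each library, in CPM on a log scale; each symbol is 1 library, the tick is the group mean and the line joins the libraries of a group. Sema3a lies at 45.1 to 62.2 CPM in MEF and CiLC and at 0.827 and 1.75 CPM in LC, Sema4b at 208 and 211 CPM in LC and at 16.7 to 24.3 elsewhere, and Sema5b at 28.8 and 29.8 CPM in MEF but at 0.349 and 0.654 CPM in CiLC.

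Class 4 semaphorins, transmembrane ligands mostly of class B plexins, split between the cultures. Sema4b (20352) was at 16.7 and 17.9 CPM in MEF, 23.4 and 24.3 in CiLC and 211 and 208 in LC, a 12.1-fold difference between LC and MEF (log2 fold change 3.6 ± 0.066 SE, edgeR adjusted p = 1.24e-23). Sema4a, a ligand studied mainly in immune cells and the retina, was at 13.2 and 14.6 CPM in MEF, 18.4 and 19.2 in CiLC and 65.5 and 63.0 in LC. Both rose slightly in CiLC, by 1.38-fold and 1.35-fold (edgeR adjusted p = 2.18e-05 and 0.000167), and stayed 8.77-fold and 3.42-fold below LC. Sema4g was at 20.2 and 22.4 CPM in MEF, 19.3 and 18.8 in CiLC and 62.4 and 67.5 in LC, 3.05-fold over MEF, and did not pass between CiLC and MEF (edgeR adjusted p = 0.104), except without MEF replicate 1 (0.0475). Sema4d, the ligand of Plxnb1 also known as CD100 on lymphocytes, ran the other way, with 127 and 144 CPM in MEF, 71.7 and 70.7 in CiLC and 19.3 and 18.1 in LC. It fell 1.91-fold in CiLC (edgeR adjusted p = 2.04e-12) and was 7.26-fold lower in LC than in MEF. The summed macrophage markers ran in the same order, at 5830 to 5860, 4140 to 4190 and 1740 to 1780 CPM. Of the 12 markers, 6 were lower, 3 higher (Adgre1, Ptprc and Mrc1) and 3 not called in CiLC against MEF, and 10 were lower and 1 higher in LC against MEF. Their part in the Sema4d values was not tested. In bulk RNA, fewer cells of a type and less RNA per cell cannot be told apart.

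Sema4c was at 51.8 and 55.1 CPM in MEF, 36.1 and 36.8 in CiLC and 33.5 and 34.1 in LC. It fell 1.47-fold in CiLC (edgeR adjusted p = 4.14e-08), to a level that did not differ from LC beyond the test (edgeR adjusted p = 0.130; 0.00918 with upper quartile scaling). Sema4f was low, at 1.56 and 1.57 CPM in MEF, 0.527 and 0.459 in CiLC and 0.291 and 0.111 in LC. It fell 3.22-fold in CiLC (edgeR adjusted p = 0.000920). Its LC value rests on 5.02 and 1.89 estimated reads, and the log2 fold change of -2.90 against MEF was -3.66 without LC replicate 1.

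Both class 5 semaphorins were highest in MEF. Sema5b (20357), which carries thrombospondin repeats and acts as a repellent in the nervous system, was at 28.8 and 29.8 CPM in MEF, 0.349 and 0.654 in CiLC and 2.25 and 2.05 in LC. It fell 57-fold in CiLC, from 29.3 ± 0.712 to 0.501 ± 0.215 CPM (mean ± SD; log2 fold change -5.83 ± 0.31 SE, edgeR adjusted p = 2.33e-18). Both CiLC libraries also lay under both LC libraries, by 4.21-fold (edgeR adjusted p = 2.58e-06). Its close relative Sema5a was at 200 and 204 CPM in MEF, 166 and 165 in CiLC and 26.4 and 28.0 in LC. Sema5a fell 1.22-fold in CiLC (edgeR adjusted p = 1.16e-05) and was 7.42-fold lower in LC than in MEF. For Sema5b CiLC was the lowest culture, and for Sema5a it stayed near MEF. Smooth muscle and pericyte markers fell with Sema5b, summing to between 1790 and 1880 CPM in MEF and 174 and 177 in CiLC (8 of 9 lower). Neural and glial markers summed to 152 to 153 and 22.7 to 23.1 CPM (4 of 8 tested lower, 4 not called), with Map2 at 81.4 and 11.9 CPM. The part of either list in the Sema5b values was not tested. In LC the muscle list summed to 1020 CPM, above CiLC, with Sema5b at 2.15 ± 0.137 CPM.

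Among class 6 semaphorins, transmembrane ligands of class A plexins, Sema6c and Sema6d were higher in LC than in both other cultures. Sema6c was at 15.1 and 16.3 CPM in MEF, 15.1 and 14.6 in CiLC and 105 and 104 in LC, with CiLC not called against MEF (edgeR adjusted p = 0.431) and LC 6.62-fold over MEF (6.84e-21). Sema6d was at 7.47 and 8.04 CPM in MEF, 16.7 and 16.3 in CiLC and 30.3 and 34.3 in LC. It rose 2.14-fold in CiLC (log2 fold change 1.10 ± 0.11 SE, edgeR adjusted p = 7.06e-09) and remained 1.95-fold below LC. CiLC thus lay between the other 2 cultures for Sema6d but at the MEF level for Sema6c. Sema6a was at 12.7 and 14.7 CPM in MEF, 10.6 and 11.4 in CiLC and 5.51 and 4.71 in LC, and its call in CiLC against MEF (edgeR adjusted p = 0.0161) failed without CiLC replicate 1 (0.111), without MEF replicate 2 (0.193) and in DESeq2 (0.157). Sema6b was at 12.2 and 15.8 CPM in MEF, 8.65 and 9.43 in CiLC and 14.3 and 14.8 in LC, and fell 1.55-fold in CiLC (edgeR adjusted p = 0.000112). Sema7a (20361), which is anchored by a lipid and signals through an integrin or Plxnc1, was at 1.26 and 1.35 CPM in MEF, 1.93 and 2.13 in CiLC and 41.0 and 46.1 in LC. LC exceeded MEF by 33.2-fold (5.05 ± 0.20, edgeR adjusted p = 8.65e-20) and CiLC by 21.4-fold. The small rise in CiLC (edgeR adjusted p = 0.0348) failed when any 1 of the CiLC or MEF libraries was left out, with adjusted p from 0.0684 to 0.153.

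In LC against MEF the median absolute log2 fold change was 0.84 for plexins, the signalling receptors of semaphorins, and 2.62 for semaphorins. It was 0.45 over all genes tested, and the difference between the 2 families was not tested. Nrp1, which also binds vascular endothelial growth factor, was at 365 and 360 CPM in MEF, 232 and 228 in CiLC and 254 and 262 in LC. It fell 1.58-fold in CiLC (log2 fold change -0.66 ± 0.045 SE, edgeR adjusted p = 1.83e-11), and CiLC then lay 1.12-fold under LC (edgeR adjusted p = 0.00267; 0.119 with upper quartile scaling, 0.0543 without CiLC replicate 2). Nrp2 was at 504 and 525 CPM in MEF, 596 and 602 in CiLC and 435 and 459 in LC. It rose 1.16-fold in CiLC (edgeR adjusted p = 0.000328). The 2 neuropilins therefore moved in opposite directions in CiLC, and both were lower in LC than in MEF, by 1.40-fold and 1.15-fold.

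Of the 9 plexins, 3 rose and 5 fell in CiLC against MEF, 2 were higher and 5 lower in LC against MEF, and 6 were higher and 2 lower in CiLC against LC. The shares called were 88.9%, 77.8% and 88.9%, beside 51.6%, 70.7% and 70.6% of all genes, and in LC against MEF 22.2% reached 2-fold, beside 27.2%. Plxnb2, a widely made receptor of class 4 semaphorins, led per kilobase in every culture, at 126, 104 and 88.8 CPM per kb in MEF, CiLC and LC. Its level was 813 and 825 CPM in MEF, 680 and 677 in CiLC and 567 and 587 in LC. The fall in CiLC was 1.21-fold (edgeR adjusted p = 1.73e-05). Plxna1 was at 403 and 438 CPM in MEF, 448 and 451 in CiLC and 229 and 223 in LC, 1.86-fold lower in LC than in MEF. It did not pass in CiLC against MEF (edgeR adjusted p = 0.0896), except without MEF replicate 2 (0.0203). Plxnd1, the Sema3e receptor known from vessel patterning, was at 230 and 252 CPM in MEF, 424 and 438 in CiLC and 427 and 436 in LC. It rose 1.79-fold in CiLC (0.84 ± 0.049, edgeR adjusted p = 1.15e-12), and CiLC and LC overlapped (log2 fold change 0.00 ± 0.048 SE, edgeR adjusted p = 0.968). Its ligand gene Sema3e also rose in CiLC but was lowest in LC.

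Plxna4 was at 12.8 and 16.7 CPM in MEF, 40.5 and 37.3 in CiLC and 12.8 and 13.1 in LC, so that CiLC stood above both other cultures, by 2.63-fold and 3-fold (edgeR adjusted p = 6.72e-12 and 6.19e-13). Plxna2 was at 68.6 and 73.2 CPM in MEF, 104 and 103 in CiLC and 14.3 and 14.5 in LC, with CiLC 7.19-fold over LC. Both, like Plxna1, are class A plexins, receptors of secreted semaphorins with a neuropilin. Plxna3, also of class A, fell instead, with 36.5 and 35.6 CPM in MEF, 19.4 and 20.2 in CiLC and 12.1 and 12.5 in LC. Plxnb1, the Sema4d receptor, was at 19.1 and 17.9 CPM in MEF, 11.6 and 12.3 in CiLC and 28.8 and 29.0 in LC. Plxnb3 was at 2.83 and 3.90 CPM in MEF, 1.07 and 1.17 in CiLC and 3.36 and 3.47 in LC, 3-fold lower in CiLC than in MEF (-1.59 ± 0.27, edgeR adjusted p = 1.60e-05). For these B plexins CiLC was the lowest culture. Plxnc1, the Sema7a receptor, found on many leukocytes, was at 99.2 and 108 CPM in MEF, 86.4 and 88.0 in CiLC and 51.7 and 54.4 in LC. The macrophage markers summed in that order too, with 6 of 12 lower and 3 higher in CiLC against MEF as given above, and their part was not tested. Sema7a itself ran the opposite way.

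**Figure D4:**
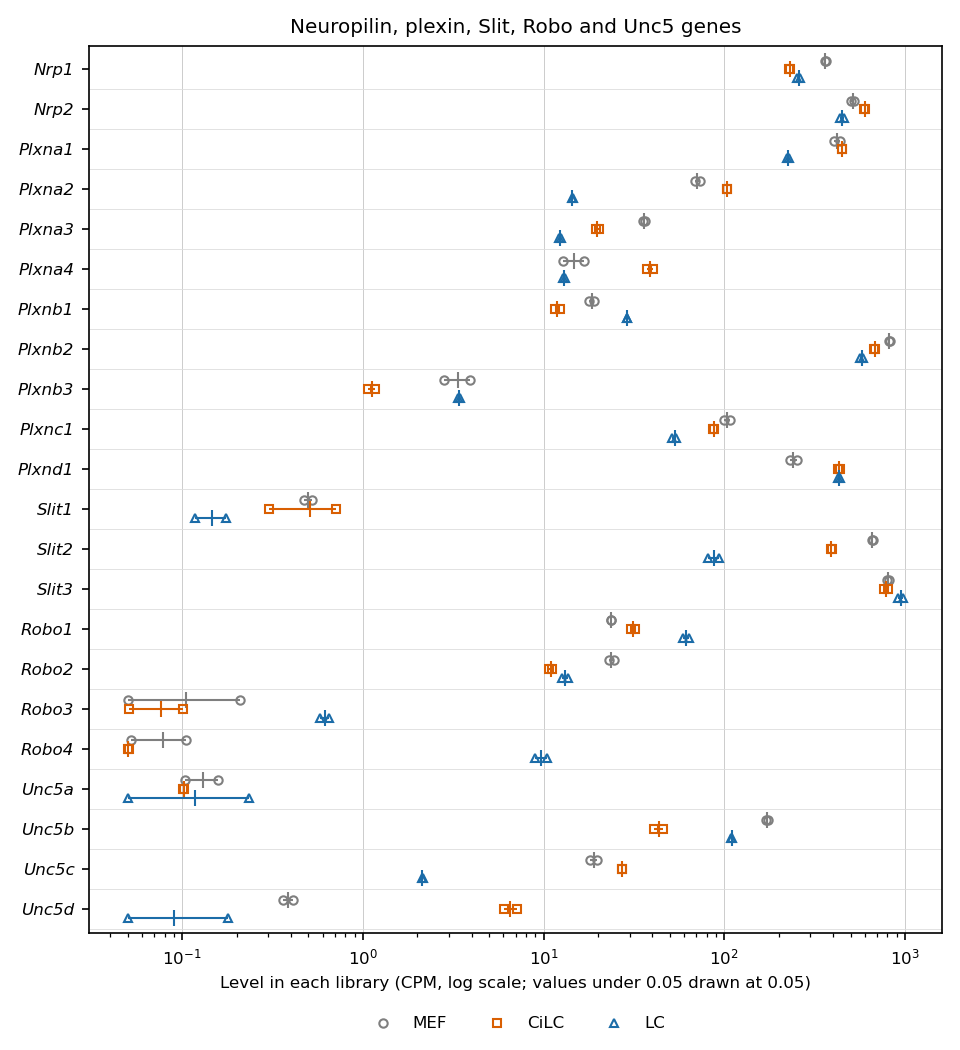
Level of the neuropilin, plexin, Slit, Robo and Unc5 genes in each library, in CPM on a log scale; each symbol is 1 library, the tick is the group mean, and values under 0.05 CPM are drawn at 0.05. Plxnd1 libraries of CiLC and LC overlap at 424 to 438 CPM, Unc5b is lowest in CiLC at 40.9 and 45.9 CPM, and Robo4 is at 8.93 and 10.4 CPM in LC but at 0 to 0.105 elsewhere.

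Both detected Slit ligands were abundant. Slit3 was at 796 and 815 CPM in MEF, 802 and 766 in CiLC and 914 and 978 in LC, and per kilobase it led Slit2 in each culture (154, 150 and 181 CPM per kb against 66.4, 39.3 and 8.78). Slit3 did not differ in CiLC beyond the test (log2 fold change -0.04 ± 0.047 SE, edgeR adjusted p = 0.515) and was 1.17-fold higher in LC than in MEF (0.000148). Slit2 (20563) was at 662 and 661 CPM in MEF, 390 and 393 in CiLC and 81.1 and 93.8 in LC. It fell 1.69-fold in CiLC (-0.76 ± 0.050, edgeR adjusted p = 1.02e-11) and was 7.57-fold lower in LC than in MEF (2.53e-22). The 3 cultures thus differed in Slit2, while Slit3 kept within a narrow range.

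Their receptors Robo1 and Robo2, which lie next to each other on chromosome 16, went in opposite directions. Robo1 was at 23.6 and 23.5 CPM in MEF, 32.0 and 30.3 in CiLC and 58.9 and 63.5 in LC, and Robo2 at 24.4 and 23.1 in MEF, 10.7 and 11.2 in CiLC and 13.6 and 12.7 in LC. Robo1 rose 1.32-fold in CiLC (edgeR adjusted p = 4.58e-05) and was 2.60-fold higher in LC than in MEF (6.09e-15). Robo2 fell 2.16-fold in CiLC (-1.11 ± 0.092, edgeR adjusted p = 3.46e-10) and was 1.81-fold lower in LC than in MEF. Between CiLC and LC, Robo2 passed narrowly (edgeR adjusted p = 0.0264) and did not pass in DESeq2 (0.125), with upper quartile scaling (0.131) or without CiLC replicate 1 (0.120), CiLC replicate 2 (0.0556) or LC replicate 1 (0.150). Robo4 (74144), the Robo of endothelial cells, had 154 and 177 reads in LC (8.93 and 10.4 CPM), 2 and 1 in MEF and 1 and 0 in CiLC. The ratio of LC to MEF was 123 (95% exact interval 41.9 to 601) and of LC to CiLC 381 (67.9 to 15100), where intervals cover counting error only. Its neighbour Robo3 had 10 and 11 reads in LC and 0 to 4 in the other libraries.

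Endothelial markers were also higher in LC, summing to 70.5 to 76.8 CPM against 15.8 to 16.5 in MEF and 14.1 to 14.9 in CiLC. Most of that sum was Cdh5, at 60.5 CPM in LC. The other 9 markers there were Vwf at 5.52 CPM, Egfl7 at 3.73, Pecam1 at 1.37, Emcn at 0.730, Tek at 0.497, Tie1 at 0.469, Erg at 0.322, Esam at 0.292 and Cldn5 at 0.204. Tie1 had no reads in MEF and Cldn5 none in CiLC. In LC against MEF, 4 of 7 tested markers were higher (Cdh5, Vwf, Egfl7 and Pecam1), 1 was lower (Erg) and 2 were not called. The part of endothelial cells in the Robo4 and Sema3g values was not tested.

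The Unc5 genes encode netrin receptors, of which Unc5b also binds Robo4 and Flrt proteins. Unc5b (107449) was at 171 and 174 CPM in MEF, 40.9 and 45.9 in CiLC and 109 and 111 in LC. It fell 3.97-fold in CiLC (log2 fold change -1.99 ± 0.057 SE, edgeR adjusted p = 1.20e-18), to 2.53-fold below LC (1.24e-15). Unc5c was at 19.7 and 18 CPM in MEF, 27.2 and 27.0 in CiLC and 2.15 and 2.12 in LC, 1.44-fold higher in CiLC than in MEF and 12.7-fold higher than in LC. Unc5d (210801) rose from 0.363 and 0.412 CPM in MEF to 6.01 and 7.09 in CiLC, a 16.5-fold change (4.04 ± 0.41, edgeR adjusted p = 1.23e-10). Its MEF level rests on 6.93 and 7.91 estimated reads. LC held 0 and 3.05 estimated reads of it, so that CiLC exceeded LC by a ratio of 74.8 (95% exact interval 25.3 to 365) and MEF exceeded LC by 4.47 (1.26 to 24.1). The call of MEF over LC (edgeR adjusted p = 0.0237) was lost without MEF replicate 2 (0.0814) or LC replicate 1 (0.223). CiLC libraries were thus the lowest of all for Unc5b and the highest for Unc5c and Unc5d. Epithelial and mesothelial markers were also highest in CiLC, summing to between 98.7 and 106 CPM against 30.1 and 30.6 in MEF and 8.39 and 9.05 in LC. Of 7 tested, 5 were higher in CiLC than in MEF and 1 was lower, with Krt18 at 19.7 CPM against 0.888, Upk3b at 34.4 against 3.05 and Msln at 37.4 against 4.28. Of the 9 fibroblast markers, only Thy1 and Lum also ran from high to low in the order CiLC, MEF and LC. Thy1 was at 395, 817 and 5.73 CPM in MEF, CiLC and LC, and Lum at 91.3, 371 and 5.72. The same order held for Unc5c, Unc5d, Efna5, Epha7 and the 4 class 3 semaphorins on chromosome 5. By mean level it also held for Nrp2, Plxna1, Plxna2, Plxna4, Efna2, Efnb2, Efnb3, Epha1 and Ephb6, though not every step was called. The whole fibroblast list summed to between 47200 and 48100 CPM in MEF, 36800 and 37000 in CiLC and 32500 and 34000 in LC. In CiLC against MEF, 5 of the 9 were higher and 4 lower. The part of epithelial, mesothelial or fibroblast cells in the values of these axon guidance genes was not tested. Smooth muscle and pericyte markers, given above, fell in CiLC together with Unc5b, Robo2 and Sema3b, and their part was not tested.

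Of the 8 ephrin ligands, 4 rose and 2 fell in CiLC against MEF. Against MEF, LC had 2 higher and 6 lower, and in CiLC against LC 7 were higher and 1 lower. The shares called were 75%, 100% and 100%, beside 51.6%, 70.7% and 70.6% of all genes. Efna5 (13640), a membrane-anchored repellent in topographic maps, was at 25.0 and 24.4 CPM in MEF, 60.4 and 56.7 in CiLC and 12.3 and 12.1 in LC. It rose 2.37-fold in CiLC (log2 fold change 1.24 ± 0.064 SE, edgeR adjusted p = 6.76e-14), which put CiLC 4.79-fold above LC (5.11e-18). Efna1 was lower, at 2.67 and 3.18 CPM in MEF, 6.67 and 5.58 in CiLC and 4.17 and 4.47 in LC, and rose 2.09-fold (edgeR adjusted p = 1.63e-05). Its calls between LC and MEF (edgeR adjusted p = 0.0108) and between CiLC and LC (0.00911) were lost in DESeq2 (0.0786 and 0.107), the first also without MEF replicate 1 (0.0904) or LC replicate 2 (0.0647) and the second without CiLC replicate 1 (0.118) or LC replicate 1 (0.0652). Efna1 was lowest in MEF, whereas its neighbours on chromosome 3, Efna3 and Efna4, were lowest in LC. Efna3 was at 11.5 and 11.8 CPM in MEF, 9.57 and 7.56 in CiLC and 2.15 and 1.88 in LC, 5.75-fold lower in LC than in MEF. Efna4 was at 6.5 and 7.5 CPM in MEF, 5.75 and 7.4 in CiLC and 3.83 and 2.77 in LC, and did not differ in CiLC beyond the test (edgeR adjusted p = 0.654). The fall of Efna3 in CiLC (edgeR adjusted p = 0.00377) was lost without CiLC replicate 2 (0.106) and in DESeq2 (0.0835). Efna2 was at 11.6 and 11.9 CPM in MEF, 12.7 and 14.3 in CiLC and 5.62 and 5.53 in LC.

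The B ephrins, transmembrane ligands that can also signal back into their own cell, were split as well. Efnb2, the arterial ligand of Ephb4, was at 43.6 and 42.7 CPM in MEF, 61.9 and 56.3 in CiLC and 27.2 and 27.8 in LC, 1.37-fold higher in CiLC than in MEF (edgeR adjusted p = 9.72e-07) and 2.15-fold higher than in LC. Efnb1 was at 40.0 and 43.6 CPM in MEF, 33.5 and 31.0 in CiLC and 62.9 and 65.9 in LC, 1.30-fold lower in CiLC than in MEF (edgeR adjusted p = 5.54e-05) and 1.99-fold lower than in LC. Efnb1 was the ephrin that was lower in CiLC than in LC. Efnb3 was at 2.67 and 3.70 CPM in MEF, 5.70 and 4.92 in CiLC and 0.174 and 1.06 in LC. Its LC value rests on 3 and 18 reads, and the log2 fold change of LC against MEF, -2.36, was -1.58 without LC replicate 1 and -4.14 without replicate 2. That of CiLC against LC, 3.10, was 2.32 and 4.88. The rise in CiLC (edgeR adjusted p = 0.0125) failed without CiLC replicate 1 (0.121) and without MEF replicate 1 (0.146), and in DESeq2 (0.498).

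The largest differences of Eph receptors between LC and MEF were 140-fold for Ephb1 and 128-fold for Epha3. That of Ephb1 rests on 2 and 2 MEF reads, too few for a firm fold. Of 12 tested, 3 rose and 3 fell in CiLC against MEF, with 6 not called. For LC against MEF the counts were 3 higher and 6 lower, and in CiLC against LC 7 were higher and 3 lower. The shares called, 50%, 75% and 83.3%, stand beside 51.6%, 70.7% and 70.6% of all genes, so that the first is near the general rate. Epha3 (13837) was at 82.9 and 76.5 CPM in MEF, 41.6 and 40.6 in CiLC and 0.812 and 0.412 in LC, and Epha7 (13841) at 17.2 and 18 in MEF, 31.3 and 31.2 in CiLC and 0.464 and 0.412 in LC. Both, high-affinity receptors of A ephrins, were nearly silent in LC. Epha3 was 128-fold (log2 fold change -7.01 ± 0.32 SE, edgeR adjusted p = 2.41e-22) and Epha7 39.6-fold lower in LC than in MEF (-5.31 ± 0.34, 1.96e-17), from 14 and 7 and from 8 and 7 LC reads. In CiLC they went opposite ways. Epha3 fell 1.94-fold (edgeR adjusted p = 4.05e-12) and Epha7 rose 1.78-fold (4.42e-09). Epha4, which binds both A and B ephrins, was at 106 and 102 CPM in MEF, 100 and 93.8 in CiLC and 8.18 and 8.30 in LC, 12.6-fold lower in LC than in MEF and not called in CiLC (edgeR adjusted p = 0.0968). Ephb3 was at 103 and 105 CPM in MEF, 76.9 and 77.8 in CiLC and 12 and 12.4 in LC, 8.51-fold lower in LC than in MEF. Epha5 had 22 and 29 reads in MEF, 11 and 10 in CiLC and 0 and 1 in LC, a ratio of MEF to LC of 45.6 (95% exact interval 7.82 to 1840) and of CiLC to LC of 18.3 (2.94 to 755). Its fall in CiLC (edgeR adjusted p = 0.00950) was lost without either CiLC library (0.0534 and 0.0727), without MEF replicate 2 (0.111) and in DESeq2 (0.130).

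A smaller group of Eph receptors was highest in LC. Epha2, an A-ephrin receptor prominent in epithelia, was at 16.7 and 15.9 CPM in MEF, 16.6 and 16.5 in CiLC and 51.5 and 49.2 in LC, 3.09-fold over MEF (log2 fold change 1.63 ± 0.073 SE, edgeR adjusted p = 1.04e-15). Ephb4, the Efnb2 receptor of veins, was at 78.9 and 87.4 CPM in MEF, 90.8 and 89.5 in CiLC and 151 and 142 in LC, 1.76-fold over MEF. It led the Eph family in LC at 33.7 CPM per kb. Neither passed in CiLC against MEF (edgeR adjusted p = 0.825 for Epha2 and 0.0898 for Ephb4, the latter 0.0227 without MEF replicate 2). Ephb1 (270190) had 2 and 2 reads in MEF, 13 and 7 in CiLC and 279 and 253 in LC (16.2 and 14.9 CPM), and was 140-fold higher in LC than in MEF (7.13 ± 0.69, edgeR adjusted p = 1.47e-16). Its rise in CiLC (edgeR adjusted p = 0.00512) was lost without CiLC replicate 1 (0.0966). Ephb6, an Eph that lacks kinase activity, was highest in CiLC, at 18.2 and 19.6 CPM against 8.81 and 8.74 in MEF and 7.77 and 8.06 in LC, 2.15-fold over MEF (edgeR adjusted p = 2.12e-09). Epha6 lay between 5.54 and 6.59 CPM in all 6 libraries and Ephb2 between 93.7 and 107, and neither passed in any of the 3 comparisons. Ephb2 came close in both comparisons with MEF (edgeR adjusted p = 0.0685 for CiLC and 0.0515 for LC) and passed in both without MEF replicate 1 (0.0249 and 0.0136), with upper quartile scaling (0.0374 and 0.000649), with the filter at 5 CPM (0.0462 and 0.0365) and with a replicate block (0.0497 and 0.0366). Epha1 was at 9.24 and 8.69 CPM in MEF, 11.4 and 9 in CiLC and 5.06 and 5.19 in LC, 1.75-fold lower in LC than in MEF.

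**Figure D5:**
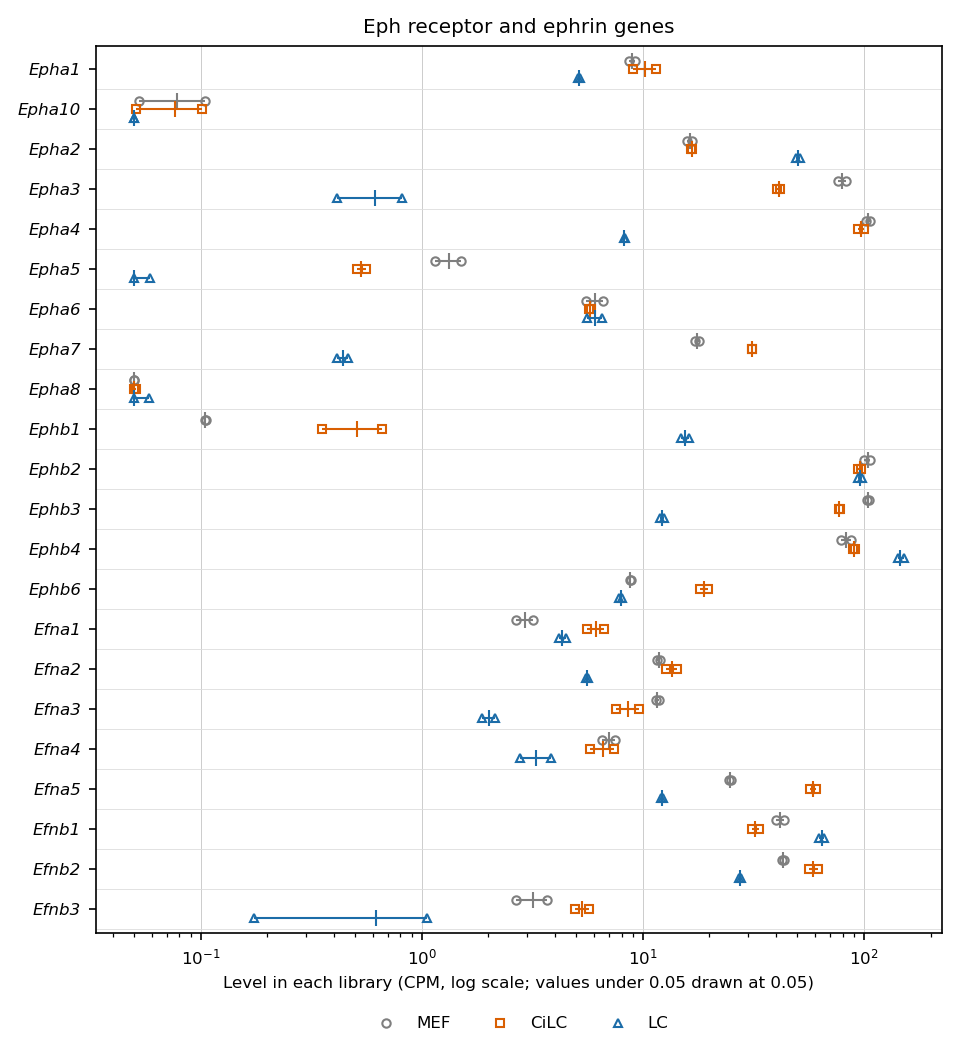
Level of the 14 Eph receptor and 8 ephrin genes in each library, in CPM on a log scale; each symbol is 1 library, the tick is the group mean, and values under 0.05 CPM are drawn at 0.05. Epha3 and Epha7 lie at 17.2 CPM or above in MEF and CiLC and at 0.412 to 0.812 in LC, whereas Ephb1 is at 14.9 and 16.2 CPM in LC and at 0.104 to 0.662 elsewhere.

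A list of 47 further genes of these pathways, which holds netrins, draxin, cell adhesion co-receptors, growth factor receptors that share ligands with neuropilins, and cytoplasmic effectors, was tested in the same fit. In CiLC against MEF 22 rose, 18 fell and 7 did not pass, with a median log2 fold change of 0.22. In LC against MEF 21 were higher and 25 lower (median -0.36), and in CiLC against LC 21 were higher and 22 lower (median 0.10). Shares called over all genes are those given above. Chl1, an adhesion molecule that can pair with Nrp1, rose 11.8-fold in CiLC, from 8.28 and 9.88 CPM in MEF to 107 and 107, with 29.6 and 29.3 in LC (log2 fold change 3.56 ± 0.086 SE, edgeR adjusted p = 3.50e-21). Draxin, a secreted Dcc ligand, rose from 0.802 and 0.949 CPM to 3.17 and 4.54 and reached 35.9 and 39.9 in LC. Ngef, an exchange factor that acts below Epha4, was at 0.105 and 0.156 CPM in MEF, 0.814 and 0.659 in CiLC and 5.57 and 5.71 in LC. These 3 genes were higher in CiLC than in MEF by at least 4-fold.

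Going the other way in CiLC by at least 4-fold were Dcc, Dscam, Crmp1, Flt1 and Kdr. Dcc, the attractive netrin receptor, was at 3.90 and 3.33 CPM in MEF, 0.666 and 0.865 in CiLC and 0.0632 and 0 in LC. Dscam, another netrin receptor, was at 3.77 and 5.52 CPM in MEF, 0.102 and 0.203 in CiLC and 0 and 0.0589 in LC. Crmp1, a cytoplasmic mediator of Sema3a, was at 4.51 and 6.66 CPM in MEF, 0.407 and 0.456 in CiLC and 0.232 and 0.353 in LC. Of 8 neural and glial markers tested in LC against MEF, 3 were higher (Tubb3, S100b and Nes) and 4 lower, Map2 among them. In CiLC against MEF 4 were lower (Map2, Nes, Tubb3 and Sox10) and none was higher, and the part of neural cells was not tested. The ratio of MEF to LC was 123 for Dcc (95% exact interval 21.8 to 4910) and 159 for Dscam (28.2 to 6320). Flt1, a receptor of vascular endothelial growth factor, was at 134 and 134 CPM in MEF, 32.8 and 31.3 in CiLC and 4.06 and 3.94 in LC. Kdr, the main signalling receptor of the same factor, was at 18.9 and 19.6 CPM in MEF, 2.60 and 2.43 in CiLC and 9.16 and 10.4 in LC. Their ligand gene Vegfa ran opposite to Flt1, at 76.0 and 70.1 CPM in MEF, 137 and 138 in CiLC and 569 and 574 in LC, 7.82-fold higher in LC than in MEF (log2 fold change 2.97 ± 0.051 SE, edgeR adjusted p = 2.93e-23).

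Between LC and MEF, a 4-fold difference was also passed by Ntng2 (3.00 CPM in MEF and 13.3 in LC), Dpysl5 (0.183 and 1.52), Rnd1 (4.35 and 19.8), Nrcam (78.7 and 16.9) and the netrin G1 gene Ntng1, which had no LC reads and was at least 10.4-fold lower in LC than in MEF, against a floor of 3 reads over the group. Between CiLC and LC it was passed by the netrin gene Ntn1, the adhesion genes Flrt1 and Flrt3, the plexin-related receptor gene Met, Ntng1 and Ntn5. Dcc, Draxin, Flt1, Ngef and Vegfa, given above, passed it there too. Ntn1, the chief ligand of Dcc and the Unc5 receptors, was at 13.6 and 15.8 CPM in MEF, 35.6 and 33.9 in CiLC and 7.77 and 6.59 in LC, 4.83-fold higher in CiLC than in LC (log2 fold change 2.27 ± 0.11 SE, edgeR adjusted p = 2.05e-15). Flrt3, which binds Unc5 and Robo proteins, was at 4.51 and 5.36 CPM in MEF, 12 and 12.1 in CiLC and 1.68 and 1.94 in LC. Flrt1 was at 10.5 and 10.9, 9.12 and 8.48, and 39.2 and 38.5 CPM in the same order. Met was at 11.6 and 8.90 CPM in MEF, 26.5 and 21.9 in CiLC and 5.51 and 5.77 in LC. Ntn5 had 1 CiLC read, a ratio of LC to CiLC of 25.3 (95% exact interval 4.09 to 1040). In the netrin branch, Ntn1, Unc5c and Unc5d were thus highest in CiLC, Unc5b was lowest there, and Dcc lay between the other cultures. The netrin gene Ntn4 was also lowest in CiLC, at 3.28 CPM against 6.01 in MEF and 11.0 in LC. Ntn3 and Ntn5 were not called between CiLC and MEF.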

How the data were processed

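RNA of 6 libraries was sequenced on the BGISEQ-500 platform, per the labels' protocols. The values are expected counts (estimated reads per gene, by NCBI gene number), which the authors deposited without scaling, per the file headers. Reads were aligned with HISAT to the mouse build mm9, per the submitters' processing notes. The aligner's version, the counting tool, the annotation and the strandedness: not given in the sources used here, so a gene's reads may include those of an overlapping or antisense gene. Per library, 32.4% to 32.8% of values were fractional, as happens where shared reads are split, and 23 of the 64 genes described have a fractional value. Symbols were matched for 18179 of 18305 genes from an NCBI RefSeq table of GRCm38.p6. Promoters are RefSeq's, and transcript lengths (longest protein-coding transcript) are GENCODE's for GRCm38, so neither is of the build counted.

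Groups and replicate numbers come from the sample titles. Estimated counts were rounded, and edgeR 4.0.16 under R 4.3.3 was used: filterByExpr (minimum count 10, minimum total 15), trimmed mean of M values, and a quasi-likelihood fit of all 6 libraries with group as the only term, two-sided, with Benjamini-Hochberg adjustment over 14581 genes and calls at 0.05. A prior count of 0.125 enters the log2 fold changes, and CPM use the scaled library sizes. Where a group had 1 to 3 reads, a ratio of counts with an exact 95% interval replaces the fold, and a group without reads is set at a floor of 3. Duplicate libraries were checked for by a chi-square of counts within each pair, which exceeded sampling noise in every group, so both libraries were kept. The script was tested on simulated data.

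Values are given for members called with at least 2-fold change (up to 30 a comparison) and for 20 listed members, for pathway partners with at least 4-fold change, and for markers that move with a member. The members and lists were chosen with earlier results of these data known. Alternatives were upper quartile scaling, no filter, a mean of at least 5 CPM, a replicate block, each library left out, DESeq2 1.42.0, only the 4 libraries compared, and assumed coefficients of variation of 0.1 and 0.4.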

Additional observations from a re-analysis of the deposited data

How the results depend on the processing

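No result reversed under any alternative run. With an assumed coefficient of variation of 0.4, 1 gene was called higher and 3 lower in CiLC against MEF, 10 and 19 in LC against MEF, and 19 and 10 in CiLC against LC. With 0.1 the counts were 19 and 17, 16 and 35, and 31 and 18. Over all 14581 genes tested, the counts with 0.4 were 407 and 268, 1450 and 1058, and 937 and 1314. With 0.1 they were 2064 and 2141, 3984 and 3834, and 3815 and 3954. Leaving out each library in turn gave 19 to 24 higher and 21 to 25 lower in CiLC against MEF, 16 to 18 and 35 to 38 in LC against MEF, and 31 to 33 and 20 to 22 in CiLC against LC. Where this leaves a group with 1 library, that library is assumed to vary like the other groups. Upper quartile scaling moved the median log2 fold change over all genes from -0.01 to -0.11 in LC against MEF and from 0.00 to 0.09 in CiLC against LC.

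The fit with a replicate block gave 23 higher and 24 lower, 17 and 37, and 32 and 21. Among the 59 genes it changed the calls of Ephb2 against MEF and no other. Same-numbered libraries had correlated deviations of 0.104 between CiLC and MEF, -0.00754 between LC and MEF and -0.0853 between CiLC and LC over 14581 genes, so the numbers were not taken to pair the libraries. With 2 libraries a group, genes under about 10 reads give no firm fold.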
